A study of Mus musculus with 12 samples.

Results

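The genes Pecam1, Cdh5, Cldn5, Tie1, Tek, Erg, Egfl7, Esam, Ptprb and Eng are used as markers of endothelial cells in general, whatever the vessel they line. They were taken from the count table of mouse lung by gene symbol, each symbol matched 1 row, and they are 10 of the 55487 genes listed. RNA of lung was sequenced from mice of the C57BL/6NCr strain aged 6 months (6M), 12 months (12M), 20 months (20M) or 30 months (30M), each age having 3 libraries of the 12. RNA came from lung tissue and was selected for poly-A tails. The labels name no treatment or genetic alteration for any age. They do not say whether each library is a separate animal, so the p-values given here measure the spread between these libraries, which may be in part technical. The libraries held 12152066 to 15058628 counts, and the 10 genes together took 0.293% (20M_213) to 0.519% (30M_220) of them. None of the 10 genes was called different between any of the ages compared, while libraries of the same age differed by up to 3.14 times (Eng at 30M).

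Endothelial cells form the inner lining of blood and lymph vessels, and the lung, with its dense alveolar capillary net, is rich in them. They are held together by adherens junctions built on VE-cadherin and tight junctions built on claudin-5, and their quiescence depends on the Tie receptors, which bind angiopoietins, and on endoglin, a co-receptor for BMP9. ETS-family transcription factors, ERG among them, bind sequences around a GGAA core and maintain endothelial gene expression. In RNA of lung tissue, fewer endothelial cells and less of a transcript per endothelial cell cannot be told apart.

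In 4 of the 12 libraries, 12M_208, 20M_221, 20M_222 and 30M_220, expression relative to 6M followed gene GC content. Across the 18382 tested genes with a known GC content, Spearman's rho between the log2 difference from the 6M mean and GC was 0.229 in 12M_208, 0.358 in 20M_221, 0.465 in 20M_222 and 0.328 in 30M_220, and -0.087 to 0.052 in the other libraries. The rho is over genes, which are not replicates, and describes the library. With the length of the longest transcript in place of GC, rho was -0.201 in 20M_213, -0.185 in 30M_218 and -0.123 in 30M_216. In the other libraries it was -0.103 to 0.059. The part of this length trend in the levels of the endothelial genes was not tested. GC content of the longest transcript of the 10 genes ran from 47.1% (Tek) to 60.5% (Cldn5), against a median of 49.7% for all tested genes. Markers of alveolar epithelium, 10 genes, were abundant in every library, with a summed level of 21206 CPM in 20M_221, 22697 in 20M_222 and 19374 in 30M_220, against 28920 to 38019 in the other libraries, the highest of these being 12M_208. Most of this sum was Sftpc, at 11708, 12575 and 10377 CPM in those 3 libraries. Sftpb was not low there, at 3093, 3442 and 3069 CPM against 2472 to 3805 elsewhere. The median log2 difference of the 10 markers from the 6M mean was -0.64, -0.50 and -0.70, against -0.39 to 0.083 elsewhere. The library 20M_222 also held skeletal muscle transcripts, with 1039 CPM of Acta1 against 2.13 CPM or less elsewhere. The part of tissue composition in the levels of the endothelial genes was not tested, and values with the GC trend removed or without these libraries are given with the comparisons of ages.

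All 10 genes were well above the filter on low counts and entered every test. Their levels are given as CPM (counts per 1000000 of a library's total after TMM scaling). To compare genes with each other, CPM was divided by the total length of each gene's annotated exons in kb. On this scale Cldn5, the shortest of the genes, was highest, with a mean of 323 CPM per kb over the 12 libraries (range 242 to 412). Cdh5 followed with 137 CPM per kb (range 99.3 to 214), and Erg was lowest with 19.9 CPM per kb (range 16.6 to 26.4). These ranks, 1, 2 and 10, held in every library. Between them came Eng (103 CPM per kb), Pecam1 (94.0), Egfl7 (79.3), Esam (70.9), Tek (64.5), Ptprb (49.0) and Tie1 (47.7), and the ranges of neighbours in this order overlapped. Eng moved between ranks 3 and 7 and Egfl7 between ranks 3 and 9, depending on the library. With the longest transcript as the length instead of all exons, Cldn5 stayed first and Erg last, but Pecam1 (170 CPM per kb) and Egfl7 (152 CPM per kb) came before Cdh5 (144 CPM per kb).

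RefSeq promoter windows (GRCm38.p6) were found for 6 of the 10 genes, 10 windows in all, since Egfl7 and Erg have 3 RefSeq starts each. The 250 bases before the start are shown for the 4 genes with a RefSeq start at the boundary the count table gives: Eng, the gene that varied most between libraries, Tek, the angiopoietin receptor, Cldn5, the gene with the highest level per length, and Erg, which encodes an ETS factor itself. Capitals mark GGAA, the ETS core, or its reverse complement TTCC, and each sequence is written on the strand of its gene.
Eng, chr2:32646345-32646594, + strand: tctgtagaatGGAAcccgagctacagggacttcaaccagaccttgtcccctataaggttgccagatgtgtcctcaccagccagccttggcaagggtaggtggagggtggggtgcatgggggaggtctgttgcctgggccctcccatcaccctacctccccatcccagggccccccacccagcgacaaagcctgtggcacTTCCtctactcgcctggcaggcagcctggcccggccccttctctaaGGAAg
Tek, chr4:94739039-94739288, + strand: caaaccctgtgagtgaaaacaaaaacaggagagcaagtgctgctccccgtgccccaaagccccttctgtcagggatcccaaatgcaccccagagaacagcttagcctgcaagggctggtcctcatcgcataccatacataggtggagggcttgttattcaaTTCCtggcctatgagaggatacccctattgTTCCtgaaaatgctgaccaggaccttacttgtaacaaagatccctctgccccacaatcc
Cldn5, chr16:18776597-18776846, + strand: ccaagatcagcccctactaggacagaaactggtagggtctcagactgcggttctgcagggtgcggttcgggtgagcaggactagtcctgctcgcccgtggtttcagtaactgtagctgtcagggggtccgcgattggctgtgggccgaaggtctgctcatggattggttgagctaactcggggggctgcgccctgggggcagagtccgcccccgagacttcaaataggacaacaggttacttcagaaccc
Erg, chr16:95586594-95586843, - strand: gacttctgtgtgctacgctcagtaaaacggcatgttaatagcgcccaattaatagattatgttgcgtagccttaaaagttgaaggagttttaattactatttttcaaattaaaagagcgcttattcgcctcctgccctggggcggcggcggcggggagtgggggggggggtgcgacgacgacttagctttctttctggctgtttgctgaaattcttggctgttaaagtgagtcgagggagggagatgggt
The Eng window held 3 such cores on both strands together, 2 of them within the longer word AGGAAG, the Tek window held 2, and those of Cldn5 and Erg held 0. The windows of the other RefSeq starts of Erg, which lie within the gene, held 4 and 2 cores, those of Egfl7 held 5, 3 and 1, and that of Tie1 held 7. Of 32851 RefSeq windows of 250 bases, 93.4% held GGAA or TTCC at least once, 29.5% held AGGAAG or CTTCCT, and 6.91% held CCGGAAG or CTTCCGG, which none of the 4 windows shown here held. AGGAAG and CCGGAAG both contain the GGAA core. A match is a string of letters and not a bound site, and the absence of one in Cldn5 and Erg holds for these 250 bases alone.

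The junction and adhesion genes are Pecam1, Cdh5, Cldn5 and Esam. Pecam1 (ENSMUSG00000020717, chromosome 11, 106654217 to 106750628) encodes CD31, an adhesion molecule of endothelial cell borders that platelets and leukocytes also carry. Pecam1 stood at 484, 501 and 478 CPM at 6M, 459.7, 598 and 945 CPM at 12M, 458, 558 and 642 CPM at 20M, and 534, 562 and 807 CPM at 30M. The 3 libraries of 30M lay above the 3 of 6M, the only pair of ages at which libraries of any of the 10 genes did not overlap. That is 1 of 10 genes at 30M against 6M, where 18.6% of all 18407 tested genes had libraries that did not overlap. At 6M the highest library was 1.05 times the lowest, a narrower spread than at the later ages, and 12M_208 was higher than any library of 30M. The mean was 634 ± 150.3 CPM at 30M and 488 ± 11.9 CPM at 6M (SD, n = 3 each; log2 difference 0.38, SE 0.25, 95% interval -0.15 to 0.91). edgeR's quasi-likelihood test gave a Benjamini-Hochberg adjusted p of 0.646.

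Cdh5 (ENSMUSG00000031871, chromosome 8, 104101625 to 104144511) encodes VE-cadherin, the cadherin of endothelial adherens junctions. Cdh5 stood at 498, 492 and 454 CPM at 6M, 417, 483 and 898 CPM at 12M, 418, 637 and 742 CPM at 20M, and 516, 454 and 897 CPM at 30M. At 6M the libraries lay close together, and at each later age at least 1 library was high and 1 was low, so that all ages overlapped. The libraries 12M_208 and 30M_220 were nearly equal and the highest of all. Cdh5 averaged 622 ± 239.6 CPM at 30M and 481 ± 23.5 CPM at 6M (SD, n = 3 each; log2 difference 0.37, SE 0.32, 95% interval -0.31 to 1.06; edgeR adjusted p = 0.767).

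Cldn5 (ENSMUSG00000041378, chromosome 16, 18776847 to 18778262) encodes claudin-5, the claudin of endothelial tight junctions. Cldn5 stood at 384, 509.8 and 356 CPM at 6M, 378, 536 and 583 CPM at 12M, 342, 570.4 and 519 CPM at 20M, and 433, 399.6 and 474 CPM at 30M. Unlike the other junction genes it varied widely at 6M as well, where 6M_202 stood above both other libraries, and least at 30M. Its coefficient of variation (SD over mean) was 8.57% at 30M and 19.6% at 6M. Cldn5 averaged 436 ± 37.4 CPM at 30M and 417 ± 81.7 CPM at 6M (SD, n = 3 each; log2 difference 0.064, SE 0.22, 95% interval -0.41 to 0.54; edgeR adjusted p = 0.960).

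Esam (ENSMUSG00000001946, chromosome 9, 37528078 to 37538319) encodes an immunoglobulin-family adhesion molecule of endothelial tight junctions, which platelets carry too. Esam stood at 186, 210.4 and 208.2 CPM at 6M, 182, 227 and 245 CPM at 12M, 172, 212 and 219 CPM at 20M, and 172, 201.5 and 202.96 CPM at 30M. It was the steadiest of the 10 genes, with a highest library 1.42 times the lowest, and all ages overlapped. It was the only one of the 10 with a log2 difference below 0 at 30M against 6M in the edgeR fit of all 12 libraries. Ptprb, at 0.00022 in that fit, was below 0 under other settings, among them DESeq2, its size factors and no filter on low counts. Esam averaged 192 ± 17.4 CPM at 30M and 201.4 ± 13.7 CPM at 6M (SD, n = 3 each; log2 difference -0.068, SE 0.15, 95% interval -0.39 to 0.26; edgeR adjusted p = 0.937).

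**Figure D1:**
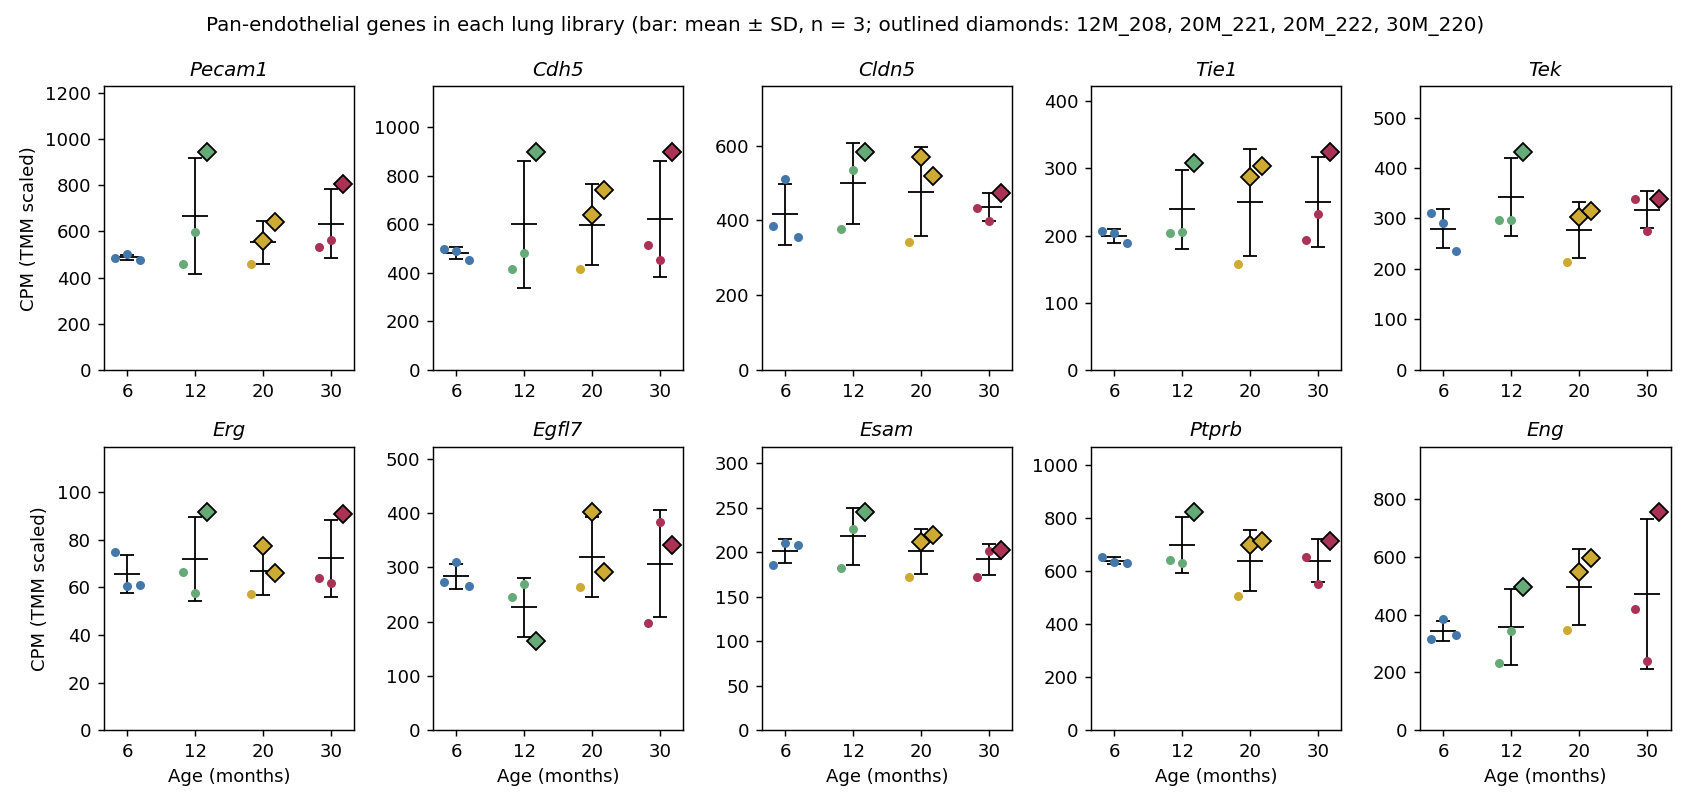
Level of each of the 10 genes in CPM (vertical axis, starting at 0) at 6M, 12M, 20M and 30M, with 1 point per library and the mean and SD of 3 libraries per age. The points of 6M lie close together for most genes, while at 12M, 20M and 30M 1 or 2 libraries stand above the rest, as for Eng, where 30M_220 reached 754 CPM and 30M_218 stood at 240.0 CPM.

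The Tie receptors and their phosphatase are Tie1, Tek and Ptprb. Tek (ENSMUSG00000006386, chromosome 4, 94739289 to 94874976) encodes TIE2, the receptor of the angiopoietins. Tek stood at 310.1, 292 and 236 CPM at 6M, 298, 297 and 432 CPM at 12M, 214, 302 and 315 CPM at 20M, and 339, 275 and 339.6 CPM at 30M. The highest library was 12M_208 and the lowest 20M_213, and the mean of 20M, 277 ± 55.1 CPM, lay just under that of 6M. Tek averaged 318 ± 37.2 CPM at 30M and 279 ± 38.6 CPM at 6M (SD, n = 3 each; log2 difference 0.19, SE 0.20, 95% interval -0.24 to 0.61; edgeR adjusted p = 0.831).

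Tie1 (ENSMUSG00000033191, chromosome 4, 118471191 to 118490061) encodes the orphan receptor that pairs with TIE2. Tie1 stood at 206.5, 203.4 and 188 CPM at 6M, 204, 205.9 and 307 CPM at 12M, 157, 288 and 303 CPM at 20M, and 194, 232 and 325 CPM at 30M. The 6M libraries were again close together, the high values were those of 12M_208, 20M_221, 20M_222 and 30M_220, and 20M_213 was the lowest of all. The mean was 250.04 ± 67.3 CPM at 30M and 199 ± 9.75 CPM at 6M (SD, n = 3 each; log2 difference 0.33, SE 0.26, 95% interval -0.22 to 0.88; edgeR adjusted p = 0.732).

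Ptprb (ENSMUSG00000020154, chromosome 10, 116275523 to 116389535) encodes VE-PTP, the phosphatase that removes phosphate from TIE2. Ptprb stood at 653, 634 and 629 CPM at 6M, 641, 631 and 821 CPM at 12M, 506, 697 and 713 CPM at 20M, and 653, 551 and 713 CPM at 30M. Its means at 6M, 20M and 30M were nearly the same, at 639 ± 12.4, 639 ± 115 and 639 ± 82.0 CPM (SD, n = 3 each), although the libraries of 20M and 30M spread to both sides of those of 6M. The 30M against 6M fit gave a fold of 1.0002 with a 95% interval of 0.771 to 1.297 (edgeR adjusted p = 0.9997).

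Eng (ENSMUSG00000026814, chromosome 2, 32646595 to 32682669) encodes endoglin, the co-receptor that presents BMP9 to the receptor kinase ALK1. Eng stood at 316, 384 and 331 CPM at 6M, 234, 344 and 494 CPM at 12M, 347, 546 and 595 CPM at 20M, and 419.8, 240.0 and 754 CPM at 30M. It varied most of the 10 genes, and its highest library, 30M_220, was 3.22 times its lowest, 12M_206. At 30M one library stood above all others and one below every library of 6M, which gives a coefficient of variation of 55.4%. Eng averaged 471 ± 261 CPM at 30M and 344 ± 35.7 CPM at 6M (SD, n = 3 each; log2 difference 0.46, SE 0.37, 95% interval -0.35 to 1.26; edgeR adjusted p = 0.750). It averaged 496 ± 131 CPM at 20M and 344 ± 35.7 CPM at 6M (SD, n = 3 each; log2 difference 0.53, SE 0.37, 95% interval -0.27 to 1.33; edgeR adjusted p = 0.669). The end of Eng overlaps that of Fpgs on the opposite strand, and whether counting used the strand is not given in the sources used here.

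Erg (ENSMUSG00000040732, chromosome 16, 95359169 to 95586593) encodes the ETS transcription factor of endothelial cells. Erg stood at 74.8, 60.8 and 61.0 CPM at 6M, 66.4, 57.5 and 91.6 CPM at 12M, 57.4, 77.5 and 66.01 CPM at 20M, and 63.9, 61.8 and 90.7 CPM at 30M. The libraries 12M_208 and 30M_220 were highest and nearly equal, and the other libraries of 12M and 30M lay within the range of 6M or, in 12M_207, below it. Erg averaged 72.1 ± 16.1 CPM at 30M and 65.5 ± 8.04 CPM at 6M (SD, n = 3 each; log2 difference 0.14, SE 0.20, 95% interval -0.29 to 0.57; edgeR adjusted p = 0.892).

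Egfl7 (ENSMUSG00000026921, chromosome 2, 26580014 to 26593120) encodes a protein that endothelial cells secrete, and its gene contains the endothelial microRNA miR-126. Egfl7 stood at 274, 310.3 and 266 CPM at 6M, 246, 269 and 164 CPM at 12M, 264, 402 and 291 CPM at 20M, and 197, 383 and 341 CPM at 30M. The pattern differed from that of the other genes, since 12M_208, the highest library for 7 of the 10 genes, was the lowest for Egfl7, and 30M_218 was higher than 30M_220. Among the comparisons tested, the largest log2 difference of Egfl7 was between 20M (319 ± 72.9 CPM) and 12M (226 ± 55.1 CPM; SD, n = 3 each), and this had the smallest unadjusted p of any of the 10 genes, 0.0702 (edgeR adjusted p = 0.465). Egfl7 averaged 307 ± 97.9 CPM at 30M and 283 ± 23.6 CPM at 6M (SD, n = 3 each; log2 difference 0.12, SE 0.25, 95% interval -0.43 to 0.66; edgeR adjusted p = 0.934). The microRNA is shown because it lies within the gene, with its seed, bases 2 to 8, in capitals.
mmu-miR-126a-3p, chr2:26591402-26591423, + strand: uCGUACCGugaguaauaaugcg
The table's row for Mir126a, on the strand of Egfl7, was listed at 0 counts in all 12 libraries. The end of Egfl7 also overlaps that of Agpat2 on the opposite strand. On the same strand Egfl7 overlaps Gm20532 (26586639 to 26635634), annotated as protein-coding and listed at 0 counts. Whether reads in sequence shared by the overlapping genes were left uncounted was not tested.

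The genes varied together between libraries, and the high libraries were the 4 with a GC trend. Relative to the 6M mean, 12M_208 was above it for 9 of the 10 genes and 20M_221, 20M_222 and 30M_220 for 10 of 10. The median log2 difference from the 6M mean over the 10 genes was 0.51 in 12M_208, 0.33 in 20M_221, 0.26 in 20M_222 and 0.38 in 30M_220, against -0.21 to 0.053 in the other 8 libraries, those of 6M included. The 20M age was split, as 20M_213 was its lowest library for 10 of 10 genes and the lowest of all 12 libraries for 6. It was also the library with the lowest rho with transcript length, -0.201. At 30M, 30M_220 was the highest library for 9 of 10 genes, all but Egfl7. The median coefficient of variation of the 10 genes was 7.55% at 6M, 24.5% at 12M, 21.4% at 20M and 23.0% at 30M. Over all genes but those with few counts, the libraries of 6M also lay closest to each other. Chi-square per gene between pairs of libraries was 6.66 to 11.6 at 6M and 12.7 to 36.9 at 12M. It was 30.6 to 48.8 at 20M and 23.2 to 49.9 at 30M.

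**Figure D2:**
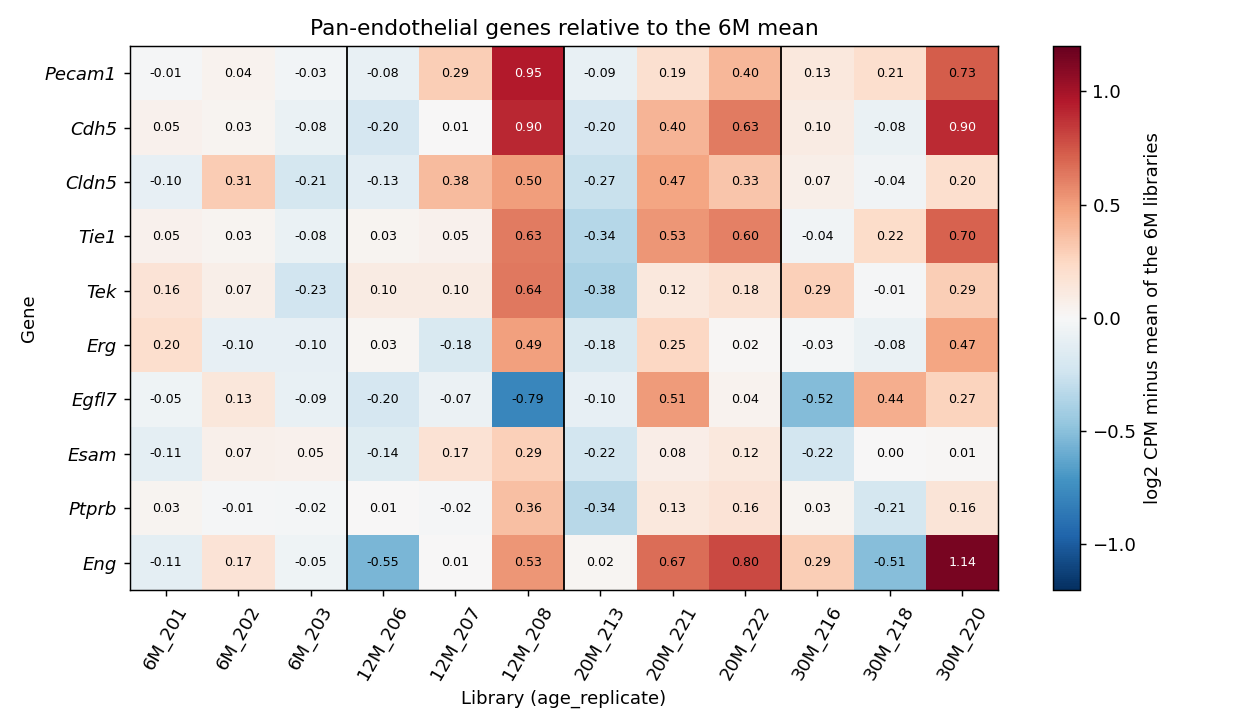
log2 CPM of each gene (rows) in each library (columns, grouped by age from 6M to 30M), minus the mean of the 3 libraries of 6M, with red above and blue below that mean. The columns of 12M_208, 20M_221, 20M_222 and 30M_220 are red for nearly all genes, from 1.14 for Eng in 30M_220 down to -0.79 for Egfl7 in 12M_208, and the column of 20M_213 is blue for 9 of 10 genes.

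Set against this spread, none of the 10 genes passed the test in any comparison of ages made (called when the Benjamini-Hochberg adjusted p of edgeR's quasi-likelihood test was under 0.05). The pair 30M against 12M was not tested on its own. At 12M against 6M, 0 of 10 were called and 0% of all tested genes were, with adjusted p from 0.988 to 0.996 for the 10 genes (662 of all genes had an unadjusted p under 0.05, and DESeq2 called 9). At 20M against 6M, 0 of 10 were called against 0.0163% of all genes (adjusted p = 0.669 to 0.999 for the 10 genes). At 30M against 6M, 0 of 10 were called against 1.96% of all genes (adjusted p = 0.646 to 0.9997 for the 10 genes). For 20M against 12M the share called was 0 of 10 against 0% of all genes (2062 at an unadjusted p under 0.05, and 9 by DESeq2), and for 30M against 20M it was 0 of 10 against 0.212%. The joint test over the 4 ages called 0 of 10 against 1.11% of all genes, and the slope on months called 0 of 10 against 2.68% (2.5% higher and 0.179% lower). In each of these 7 tests 0 of the 10 genes had an unadjusted p under 0.05, and DESeq2 called 0 of 10.

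The size of what could have gone unseen is given by the intervals. At 30M against 6M the log2 differences of the 10 genes ran from -0.068 (Esam) to 0.46 (Eng), with a median of 0.16 against 0.0028 over all genes tested, and 9 of 10 were above 0 (8 of 10 with DESeq2's size factors) against 50.5% of all genes. At 20M against 6M the median of the 10 genes was 0.18 against 0.035 over all genes, and at 12M against 6M it was 0.20 against 0.017. These comparisons share the 6M libraries. The 95% intervals at 30M against 6M were narrowest for Esam, which allows a fold of 0.763 to 1.19, and widest for Eng, which allows 0.787 to 2.39.

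These medians depended on single libraries. Without 30M_220 alone the median of the 10 genes at 30M against 6M was 0.0050, with 5 genes above 0 and 5 below, and without 12M_208 alone the median at 12M against 6M was 0.0041, again with 5 above 0 and 5 below. At 20M against 6M it was 0.0079 without 20M_221, 0.095 without 20M_222 and 0.26 without 20M_213. Without 20M_221, 20M_222 and 30M_220, the 3 with the steepest GC trend, the median at 30M against 6M was 0.0059. Eng stood at -0.058 and Cdh5 at 0.012 on that log2 scale. At 20M against 6M, where only 20M_213 then remains at 20M and is assumed to vary like the other ages, the median was -0.22, with 1 gene above 0 (Eng) and 9 below. With a term for the 3 libraries in the fit of all 12, the median was 0.017 at 30M against 6M and -0.20 at 20M against 6M. With the GC trend of each library removed across genes instead, it was 0.17 at 30M against 6M and 0.052 at 20M against 6M. Under each of these fits 0 of the 10 genes were called at 30M against 6M or at 20M against 6M.

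**Figure D3:**
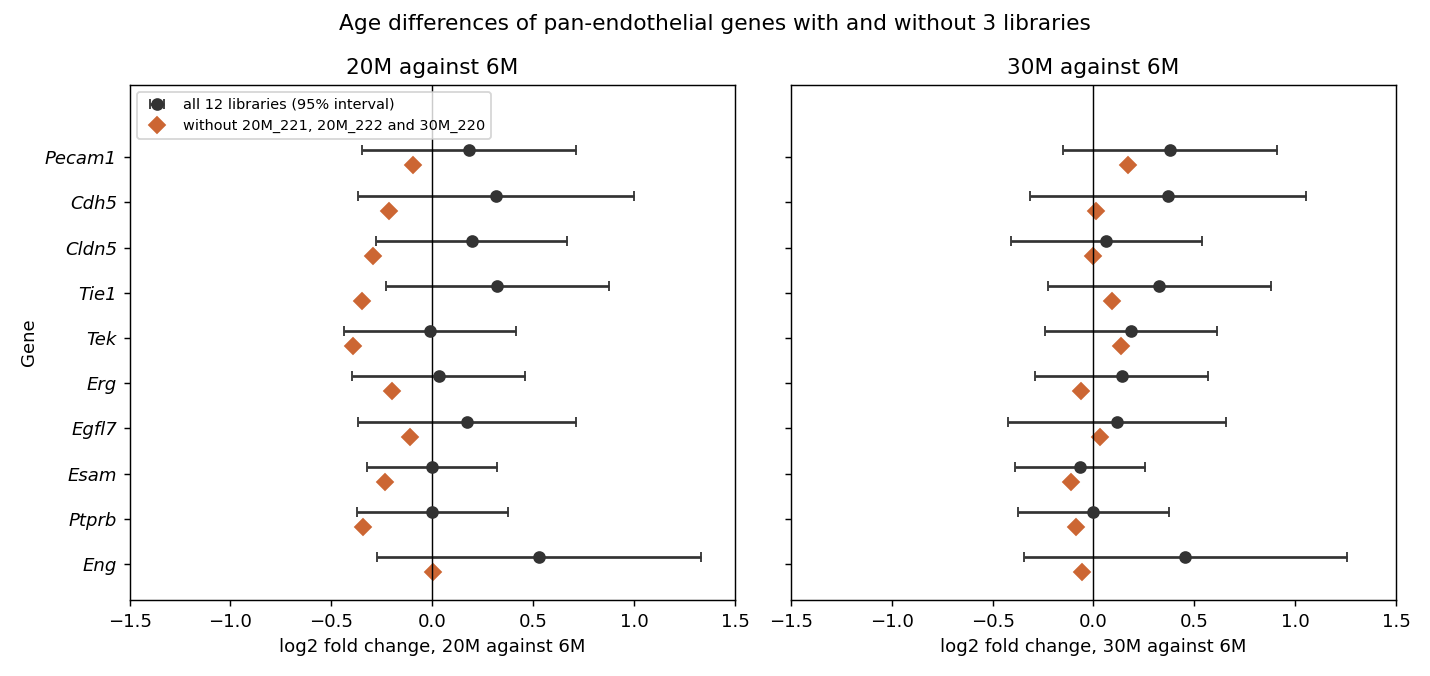
log2 fold change of each gene at 20M against 6M (left) and 30M against 6M (right), with black points and 95% intervals from the edgeR fit of all 12 libraries and orange diamonds from the fit without 20M_221, 20M_222 and 30M_220. Every interval crosses 0, and the diamonds lie left of the points, at 20M against 6M below 0 for 9 of 10 genes.

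Ligands, receptors and partners of the 10 genes were listed by pathway, and the values below are log2 differences at 30M against 6M with edgeR's adjusted p over all tested genes, beside a median of 0.0028 for all genes. Of all 18407 tested genes, 11.6% had an unadjusted p under 0.05 in edgeR's test at 30M against 6M, and DESeq2 called 753. The counts of each list are to be read beside these shares. Of 8 genes of the angiopoietin-Tie pathway, Tek, Tie1 and Ptprb among them, 0 rose, 0 fell and 8 were not called (median 0.060). Of these 8, 0 were at an unadjusted p under 0.05 and 0 were called by DESeq2. Without the 3 libraries with the steepest GC trend (20M_221, 20M_222 and 30M_220) the median was -0.069, with 3 of 8 above 0. The TIE2 ligand Angpt1 stood at -0.15 (SE 0.18, adjusted p = 0.868) and Foxo1, a transcription factor that TIE2 signalling restrains, at 0.26 (SE 0.21, adjusted p = 0.756). Of 10 VEGF ligands and receptors 0 were called, with 0 at an unadjusted p under 0.05 and 0 by DESeq2 (median 0.060), and without those 3 libraries the median was -0.090, with 3 of 10 above 0. Vegfa, the main VEGF ligand, had 815, 714 and 894 CPM at 30M against 1230, 1031 and 1183 CPM at 6M, with a log2 difference of -0.51 (SE 0.25, adjusted p = 0.486). Those libraries do not overlap, as was so for 18.6% of all tested genes at these ages, and the difference did not pass the test. The lowest Vegfa level of all, 429 CPM, was in 12M_208. Of 13 tested genes of the BMP9 and endoglin pathway, out of 14 listed, 0 were called by edgeR and 0 by DESeq2 (median 0.20, 1 gene at an unadjusted p under 0.05), and without those 3 libraries the median was 0.052. BMP9 itself, Gdf2, was low at 1.29 to 4.02 CPM at 30M and 1.07 to 1.46 CPM at 6M, with a log2 difference of 1.14 (SE 0.46, adjusted p = 0.332). The inhibitory Smad7 stood at 0.39 (SE 0.23, adjusted p = 0.594).

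Acvrl1, which encodes ALK1, the kinase that endoglin serves, was chosen for display after its values were seen. It had 359, 326 and 673 CPM at 30M against 352, 358 and 365 CPM at 6M, and at 20M 301, 539 and 628 CPM. As for Eng, 30M_220, 20M_221 and 20M_222 were high and the difference between 30M and 6M was within the spread, at 0.34 (SE 0.33, adjusted p = 0.814) by edgeR. Among 15 partners in adherens and tight junctions, 0 were called at 30M against 6M by edgeR and 0 by DESeq2 (median -0.085, 2 genes at an unadjusted p under 0.05). Of all tested genes, 11.6% had an unadjusted p under 0.05 in that comparison. On the slope over months 0 rose and 1 fell, where 0.179% of all genes fell. This was the tight junction gene Ocln, with 64.9, 47.7 and 48.4 CPM at 30M and 76.1, 74.0 and 72.0 CPM at 6M, whose slope was -0.021 log2 per month (SE 0.0051, edgeR adjusted p = 0.0427). That call held when 12M_208, 20M_222 or 30M_216 was left out and was lost without any other single library, with an edgeR adjusted p of up to 0.169 (without 30M_220). It was also lost once the GC trend of each library was removed, where the slope was -0.016 (edgeR adjusted p = 0.173). With no filter on low counts (edgeR adjusted p = 0.0858) or a term for 20M_221, 20M_222 and 30M_220 (edgeR adjusted p = 0.0584) the call was lost too. Without those 3 libraries only 20M_213 remains at 20M, so the size alone is given for that fit, a slope of -0.017. Over the fits that leave out 1 library the slope stayed between -0.027 and -0.018. Ocln is a gene of epithelial junctions as well as endothelial ones. Of 16 endothelial transcription factors, Erg included, 0 were called at 30M against 6M by edgeR and 0 by DESeq2, and all 16 log2 differences were above 0 (median 0.25, 3 genes at an unadjusted p under 0.05). Without the 3 libraries with the steepest GC trend 11 of 16 were above 0. Sox17, a factor of arterial endothelium, stood at 0.64 (SE 0.23, adjusted p = 0.253) and Sox7 at 0.62 (SE 0.23, adjusted p = 0.260). Of 10 Notch pathway genes 0 were called by edgeR and 0 by DESeq2 (median 0.099, 1 gene at an unadjusted p under 0.05), and without those 3 libraries the median was -0.085.

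A list of 22 further pan-endothelial genes had 0 called at 30M against 6M by edgeR and 0 by DESeq2, 20 of 22 log2 differences above 0 and a median of 0.26 (1 gene at an unadjusted p under 0.05). In that comparison 11.6% of all 18407 tested genes had an unadjusted p under 0.05, and DESeq2 called 753. Without the 3 libraries with the steepest GC trend 15 of 22 were above 0 and the median was 0.093. Mmrn2, an extracellular matrix protein of endothelium, had 41.0, 38.5 and 59.9 CPM at 30M against 25.2, 26.4 and 27.0 CPM at 6M, and its log2 difference was 0.83 (SE 0.28, adjusted p = 0.198) by edgeR. Markers of particular vessels were compared beside them. Of 8 markers of aerocytes, the large capillary cells specialised for gas exchange, 0 rose and 1 fell at 30M against 6M, where 0.0272% of all genes fell (median of the 8 markers -0.43, 4 of them at an unadjusted p under 0.05 and 2 called by DESeq2). This was Fibin, with 33.5, 25.3 and 34.9 CPM at 30M against 60.9, 71.8 and 76.2 CPM at 6M and a log2 difference of -1.16 (SE 0.22, adjusted p = 0.0194) by edgeR. The log2 difference of Fibin was -1.14 without 6M_202 (edgeR adjusted p = 0.0794), -1.09 without 6M_203 (edgeR adjusted p = 0.1098), -1.03 without 30M_218 (edgeR adjusted p = 0.0776) and -1.25 without the 3 libraries with the steepest GC trend (edgeR adjusted p = 0.0528), so in these fits the call was lost while its size stayed similar. On the slope over months 2 of the 8 fell, where 0.179% of all genes fell. These were Fibin (-0.049 log2 per month, edgeR adjusted p = 0.00767) and Apln (-0.052, edgeR adjusted p = 0.0435). The call of Apln held when 6M_203 or 20M_221 was left out but not without any other single library (edgeR adjusted p of up to 0.153, without 30M_218). Its slope stayed between -0.059 and -0.046. The call of Apln was also lost with no filter on low counts (edgeR adjusted p = 0.0729). At 30M against 6M 0 of 6 general capillary markers, 0 of 10 large vessel markers and 0 of 7 lymphatic markers were called, with medians of 0.13, 0.19 and 0.090. At an unadjusted p under 0.05 there were 0, 2 and 1 of these genes, and DESeq2 called 0, 0 and 1. Without the 3 libraries with the steepest GC trend the medians were -0.043 (1 of 6 above 0), 0.18 and 0.10. That of the aerocyte markers was then -0.53, with 0 of 8 above 0.

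Pecam1 and Esam are also platelet genes, and the platelet markers are given for that reason. Of 9 tested platelet and megakaryocyte markers, out of 10 listed, 7 rose and 0 fell at 30M against 6M, where 1.93% of all genes rose. All 9 were at an unadjusted p under 0.05 and DESeq2 called 9. Over all 18407 tested genes 11.6% were at an unadjusted p under 0.05, and DESeq2 called 753. Without the 3 libraries with the steepest GC trend 5 of the 9 were called. Their summed level was 225 to 246 CPM at 30M and 58.2 to 65.98 CPM at 6M, with Gp1bb at 0 in every library. The platelet chemokine Ppbp had a log2 difference of 2.21 (SE 0.30, edgeR adjusted p = 0.00335). Pecam1 stood at 0.38 and Esam at -0.068 on the same scale, neither of them called. The part of platelets in the Pecam1 level was not tested. Of 10 macrophage markers 6 rose and 0 fell (7 called by DESeq2), with a summed level of 704 to 789 CPM at 30M and 344 to 362 CPM at 6M. Of 10 markers of monocytes and neutrophils 2 rose (4 called by DESeq2), and of 10 lymphocyte markers 2 rose (4 called by DESeq2). Of 10 alveolar epithelial markers 0 were called by edgeR and 0 by DESeq2, with 6 at an unadjusted p under 0.05, and all 10 log2 differences were below 0 (median -0.38). Without the 3 libraries with the steepest GC trend their median was -0.23, with 0 of 10 above 0. Of 10 fibroblast and mural cell markers 0 were called by edgeR and 0 by DESeq2 (median 0.12, 1 gene at an unadjusted p under 0.05), and without the 3 libraries with the steepest GC trend their median was -0.20, with 2 of 10 above 0. Of 7 tested skeletal muscle markers 0 were called, with 0 at an unadjusted p under 0.05 and 0 by DESeq2 (median 0.44, with no adjusted p from DESeq2 for 5).

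**Figure D4:**
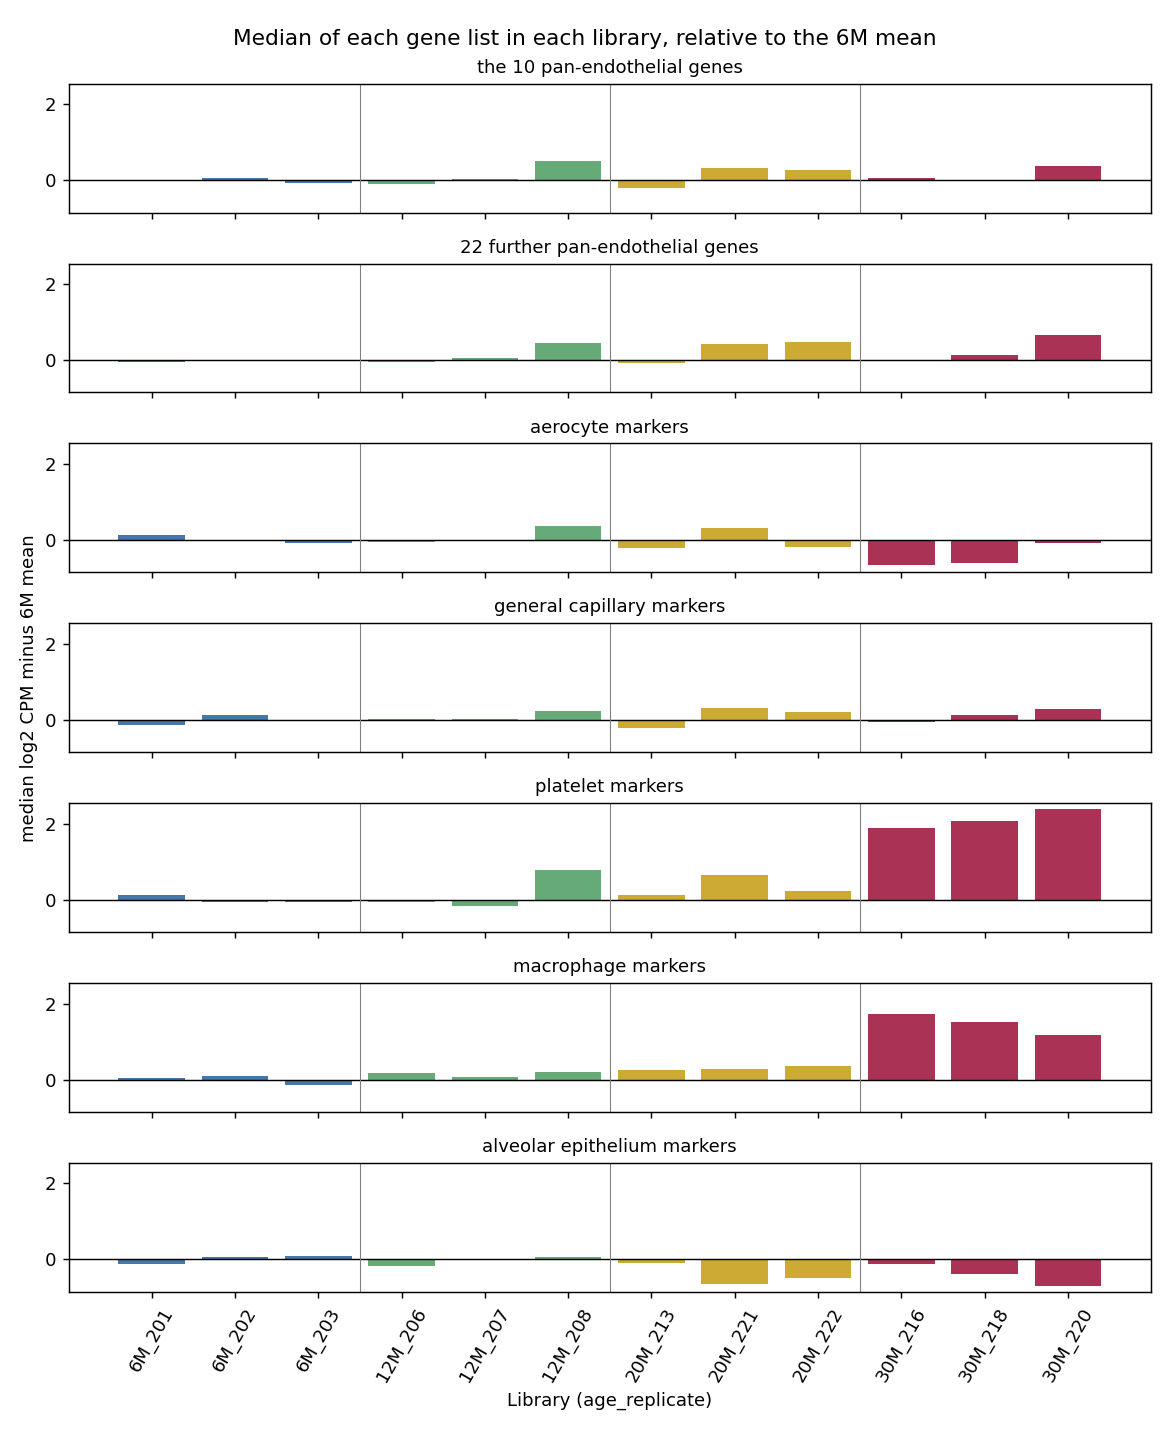
Median log2 CPM relative to the 6M mean (vertical axis, the same in every panel) for 7 gene lists in each of the 12 libraries, ordered by age from 6M to 30M. The 10 genes and the 22 further pan-endothelial genes are high in 12M_208, 20M_221, 20M_222 and 30M_220, while platelet and macrophage markers are high in all 3 libraries of 30M.

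Correlations over the 12 libraries show how closely the genes varied together. They are descriptions, since the libraries share ages, GC trends and tissue composition. Each gene was set against the mean of the other 9 (z-scored log2 CPM). Pearson's r was 0.94 for Cdh5 and 0.94 for Tie1, 0.86 for Pecam1, 0.83 for Ptprb, 0.78 for Cldn5, 0.76 for Erg, 0.73 for Tek, 0.73 for Eng and 0.64 for Esam. Egfl7 stood apart with r = -0.13. Over the 8 libraries without a GC trend r was 0.74 for Cldn5 and 0.74 for Cdh5 but 0.044 for Erg and 0.0099 for Eng, so for Erg and Eng the correlation with the other genes rested on the 4 libraries with a GC trend.

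Of 13339 genes with a mean of at least 5 CPM, the 10 most like the mean of the endothelial genes over 12 libraries were Pofut2, Tspan7, Bcl7b, Tsc22d4, Phlpp1, Adgrf5, Map3k11, Tgfb1i1, Sod3 and St3gal2, with r from 0.935 to 0.961. Over the 8 libraries without a GC trend the same genes had r from 0.604 to 0.883. By single gene, the one most like Tie1 was Flt4, the VEGF-C receptor (r = 0.970), like Eng it was Ece1 (r = 0.967), like Cdh5 Extl3 (r = 0.9752), like Pecam1 Fez2 (r = 0.971), like Cldn5 Tbl2 (r = 0.954), and like Egfl7 Ypel3 (r = 0.959).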

How the data were processed

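The deposited table holds whole-number read counts per gene, made by the authors and not normalized. The submitters' processing notes name HISAT2 2.1.0, featureCounts, Trimmomatic 0.38 and FastQC 0.11.7 with the build GRCm38 (mm10). Which annotation release was used, and whether counting used the strand, is not given in the sources used here. Gene lengths and GC content came from GENCODE M21, in which all 10 genes have the table's position. Libraries are named by age and replicate number from their titles. Libraries of the same age differed by more than sampling noise (chi-square per gene from 6.66 to 49.9), so none was counted as a repeat.

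Genes were tested in R 4.3.3 with edgeR 4.0.16 (quasi-likelihood, robust, TMM, filterByExpr by age) over all 12 libraries in 1 fit, leaving 18407 genes, with Benjamini-Hochberg adjustment over all of them. The common biological coefficient of variation was 0.236. The log2 CPM of single libraries uses a prior count of 2. Counts limit precision little at these levels, and the spread between libraries sets the intervals. In counts simulated for 30M against 6M over 18068 genes, calls were made for 1 of 67 genes with a 1.5-fold change, for 23 of 67 with a 2-fold change and for 66 of 66 with a 4-fold change. Unchanged genes made up 6 of the 96 calls.

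Alternatives were DESeq2 1.42.0, its size factors, no filter or a stricter one (1 CPM in 6 libraries), a fit without 20M_221, 20M_222 and 30M_220 or with a term for them, each library left out in turn, and, added after seeing the data, removal of each library's GC trend. The 10 genes, the 18 other gene lists and the tests were chosen with earlier results of these data known. All 10 genes are named in every library. From each pathway or vessel list come genes among the 3 with the smallest p in the slope or in 30M against 6M, from lists of other cells those with the highest mean CPM, and for likeness the highest correlations.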

Additional observations from a re-analysis of the deposited data

How the results depend on the processing

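None of the 10 genes was called in any of the 7 tests under any of the 19 alternatives, and the smallest adjusted p of any of them, over 570 refitted differences from 6M, was 0.238 (Tie1, 20M against 6M, without 20M_213). For the comparisons without 6M, the joint test and the slope, only the number of the 10 genes called is given under the alternatives. No paired analysis was possible because the ages share no replicate number. The direction of the small differences did depend on the processing. At 20M against 6M without 20M_221, 20M_222 and 30M_220, Pecam1 was at -0.097, Cdh5 -0.21, Cldn5 -0.29, Tie1 -0.35, Erg -0.20, Egfl7 -0.11 and Ptprb -0.34 (log2), each above 0 in the fit of all 12 libraries. With a term for those 3 libraries Pecam1 was at -0.14, Cdh5 -0.26, Cldn5 -0.12, Tie1 -0.24, Erg -0.26, Egfl7 -0.048, Ptprb -0.26 and Eng -0.14. At 30M against 6M the values that turned were Cldn5 -0.00037, Erg -0.059, Ptprb -0.086, Eng -0.058 and Acvrl1 -0.064 without the 3 libraries, and Cldn5 -0.077, Erg -0.024, Ptprb -0.12, Acvrl1 -0.061 and Angpt1 0.012 with the term. With the GC trend removed Cldn5 was at -0.0048 at 30M and -0.011 at 20M against 6M, and Tek at 0.052 at 20M against 6M. Under the other settings that turned its sign, Ptprb was at -0.012 (DESeq2), -0.012 (its size factors) and -0.0053 (stricter filter) at 20M, and -0.0017 (DESeq2), -0.0017 (its size factors) and -0.0053 (no filter) at 30M against 6M. The cause of these turns was not tested.

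With each library left out in turn, the log2 differences that changed sign ranged as follows. At 12M against 6M Cdh5 ran from -0.099 to 0.52, Eng from -0.25 to 0.29, Erg from -0.084 to 0.27 and Ptprb from -0.0091 to 0.20, the lowest value of each being without 12M_208. At 20M against 6M Egfl7 ran from -0.030 to 0.26, Erg from -0.087 to 0.14, Esam from -0.068 to 0.066, Ptprb from -0.087 to 0.11 and Tek from -0.12 to 0.11. At 30M against 6M Cldn5 ran from -0.038 to 0.23, Egfl7 from -0.076 to 0.35, Eng from -0.059 to 0.77, Erg from -0.060 to 0.24, Esam from -0.13 to 0.00027, Ptprb from -0.087 to 0.095 and Acvrl1 from -0.065 to 0.52.

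The number of genes called over the whole table moved more. edgeR called 0, 3, 361, 0, 39, 205 and 494 genes in the order 12M against 6M, then 20M against 6M, 30M against 6M, 20M against 12M, 30M against 20M, the joint test and the slope, with 662, 1436, 2130, 2062, 1636, 2060 and 2445 genes at an unadjusted p under 0.05. DESeq2 called 9, 56, 753, 9, 319, 788 and 900. Without a filter 77 genes were called at 30M against 20M and 316 in the joint test, and without the 3 libraries 0 at 30M against 20M. Leaving out each library gave 0 to 1, 0 to 5, 69 to 415, 0 to 0, 0 to 78, 67 to 285 and 234 to 608 in the same order, with 69 without 6M_203 and 0 at 30M against 20M without 20M_221. With 3 libraries per age, these data limit differences of the 10 genes to the intervals given and do not show that their levels were equal.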

Other observations

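The table has a row for Mir126b, annotated on the strand opposite to Egfl7 and to Mir126a at the same place, with 10 (12M_208) to 46 (30M_220) counts per library and 352 in all, against 0 for Mir126a. It was chosen after its values were seen. The lowest count was in the library in which Egfl7 itself was lowest. At 30M the order differed, with 31 counts in 30M_216, where Egfl7 was at 197 CPM, and 24 in 30M_218, where it was at 383 CPM. These counts are not scaled for library size. Whether these reads come from the Egfl7 transcript was not tested, and the strand setting of the counting is not given in the sources used here.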
